A study of Mus musculus with 2 samples.

Results

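Gene deserts are long stretches of the genome without protein-coding genes, and the peaks of open chromatin inside them are described here for the mouse organ of Corti, the sensory epithelium of the cochlea. A peak was taken when its centre lay on chromosomes 1 to 19, more than 250 kb from every transcription start site (TSS) of a protein-coding gene in GENCODE vM21 (GRCm38), and outside every annotated gene of any kind. This gave 3120 of 77826 peaks in the list labelled WT and 4993 of 100668 peaks in the list labelled *Bmi1*-/-. On chromosomes 1 to 19 the full lists held 77092 and 99683 peaks.

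The study asked how loss of *Bmi1*, which encodes a Polycomb protein, alters chromatin and gene activity in the developing cochlea. The assay for transposase-accessible chromatin with sequencing (ATAC-seq) was run on the organ of Corti of mice at postnatal day 2, freed of the stria vascularis anlage, the modiolus and the tectorial membrane. The groups were constitutive *Bmi1* tm1Brn knockout mice backcrossed to C57BL/6J and their WT littermates, with 1 library of 10 pooled mice per genotype. With 1 library per genotype there are no replicates, and no difference between genotypes could be set against the spread between animals. The pooling also means that a change in cell composition and a change within cells cannot be told apart. The labels and the peak names disagree, since all names in the list labelled WT begin with bko, for the knockout, and all names in the other list begin with bwt, for the wild type. The paper describes more ATAC-seq signal near promoters in the knockout, the direction that the labels give to the promoter peaks. That direction cannot decide between the labels and the names. The paper's comparison rests on the same libraries, and the longer list held more peaks in every class of sequence. The genotypes below are those of the labels, and each direction between the lists rests on them. With the labels exchanged, every ratio of the lists would be its inverse.

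The labelled tissue was checked by asking which marker genes had a peak within 3 kb of a TSS. Of 10 hair cell genes, 7 had one in the list labelled WT (not *Otof*, *Slc26a5* or *Tmc1*) and 9 in the list labelled *Bmi1*-/- (not *Tmc1*). Of 10 supporting cell genes, 10 had one in WT and 8 in *Bmi1*-/- (not *Gjb6* or *Hes5*). Over all protein-coding genes the share was 59.0% in WT and 68.2% in *Bmi1*-/-, so these counts of 10 genes do not single out the sensory cells. The lists also held promoter peaks for 7 and 8 of 10 neuronal genes, 5 and 4 of 10 mesenchymal genes, 4 and 2 of 10 genes of blood and macrophages, and 8 and 7 of 10 endothelial genes. The part of these other cells in the desert peaks was not tested.

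ATAC-seq marks open DNA because the Tn5 transposase inserts sequencing adapters more readily where nucleosomes are sparse. Gene deserts are mostly AT-rich, replicate late and often lie against the nuclear lamina, yet some of those beside developmental regulators hold enhancers that act on a promoter over long distances. BMI1 belongs to the Polycomb repressive complex PRC1, which modifies histone H2A and keeps developmental genes silent.

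The sequence that meets the rule covered 397 Mb, which is 16.6% of the 2396 Mb of sequenced bases on chromosomes 1 to 19. It fell into 670 deserts, each the stretch between neighbouring protein-coding TSS. The median desert held 332 kb of such sequence, 121 held at least 1 Mb, and the largest held 3.98 Mb. Peaks were thin on this ground, since the deserts carried 4.05% of the autosomal WT peaks (95% interval 3.91% to 4.19%) and 5.01% of the *Bmi1*-/- peaks (4.87% to 5.15%). Intervals here and below cover counting error only.

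The density in deserts was 7.86 peaks per Mb in WT (7.58 to 8.14) and 12.6 per Mb in *Bmi1*-/- (12.2 to 12.9). Elsewhere on the same chromosomes it was 37.0 and 47.4 per Mb. Desert density was thus 0.212 times that of the remaining sequence in WT (0.205 to 0.220) and 0.265 times in *Bmi1*-/- (0.258 to 0.273). Against intergenic sequence nearer than 250 kb to a TSS and more than 3 kb from it, the ratios were 0.287 in WT and 0.348 in *Bmi1*-/-. Among peaks whose −log10 q reached 5, the values against all remaining sequence were 0.143 and 0.0536, in the opposite order. Most of these strong peaks elsewhere lay within 3 kb of a TSS, 798 of 1195 in WT and 3375 of 4132 in *Bmi1*-/-. Against nearer intergenic sequence the strong peaks gave 0.313 (0.211 to 0.450) and 0.213 (0.152 to 0.291), a comparison added after the data were seen. In other terms, there was 1 desert peak per 127 kb in WT and 1 per 79.5 kb in *Bmi1*-/-. Peaks covered 0.212% of the desert bases in WT and 0.363% in *Bmi1*-/-, compared with 1.11% and 1.60% of the other autosomal bases.

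The ratio between the lists was higher in deserts than in the other 3 classes of sequence, without regard to base composition, which is taken up further on. The *Bmi1*-/- list held 1.60 times as many desert peaks as the WT list (1.53 to 1.67), or 0.625 times (0.597 to 0.654) with the labels exchanged. The ratio was 1.32 for nearer intergenic peaks, 1.27 for peaks inside genes and 1.25 for peaks within 3 kb of a TSS. Divided by the ratio of 1.28 over all non-desert peaks, the desert ratio was 1.25 (1.19 to 1.31). This held for the full lists and not for the strongest peaks. When −log10 q, from the p-value adjusted within a library, had to reach 5, deserts held 34 WT and 44 *Bmi1*-/- peaks, a ratio of 1.29 (0.808 to 2.09), whereas the other sequence held 1195 and 4132, a ratio of 3.46. The relative ratio then reversed to 0.374 (0.238 to 0.588). The ratio of such strong peaks was 4.23 within 3 kb of a TSS, but 1.90 in nearer intergenic sequence and 1.91 inside genes. Relative to nearer intergenic sequence alone the desert ratio was 0.680 (0.422 to 1.10), so that the reversal was larger against promoters.

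The depth behind these numbers is known only through the background at each summit, since the lists carry no read totals. The value found most often was 6.32 reads for WT and 8.04 reads for *Bmi1*-/-. This floor applied to 87.1% of the WT and 90.8% of the *Bmi1*-/- desert peaks, but to 44.4% and 50.02% of the peaks elsewhere. Desert peaks had a median pileup of 18 reads in WT and 20 in *Bmi1*-/-. Their median fold enrichment, the ratio of pileup to background, was 2.46 and 2.32. The remaining peaks had the same medians of fold enrichment, 2.46 and 2.32, with median pileups of 19 and 22 reads. The typical desert peak was thus close to the typical peak elsewhere. A −log10 q of 5 was reached by 1.09% of desert peaks in WT and 0.881% in *Bmi1*-/-. The shares were 3.91% and 13.2% of promoter peaks, 1.001% and 1.44% of nearer intergenic peaks, and 0.565% and 0.847% of peaks inside genes. Strong peaks were thus rarer in deserts than at promoters but not than inside genes. They were rarer than in nearer intergenic sequence in *Bmi1*-/- but not in WT. The part of sequencing depth in the ratio between lists was not tested.

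A q-value under 0.05 was reached by 1563 WT desert peaks (50.1%) and 2887 *Bmi1*-/- desert peaks (57.8%), against 52.4% and 63.0% of the peaks elsewhere. The median −log10 p was 4.20 in WT and 3.99 in *Bmi1*-/-. The strongest 10% of each whole list took in 7.18% of the WT and 4.33% of the *Bmi1*-/- desert peaks, against 10.1% and 10.3% of the peaks elsewhere. Nearer intergenic peaks, with 7.29% and 5.38%, and peaks inside genes, with 6.69% and 4.73%, were also lower in *Bmi1*-/- than in WT, and promoter peaks were higher, with 18.5% and 24.7%.

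Density fell with distance from a TSS well before the limit of 250 kb and went on falling beyond it. Outside genes it was 77.5 peaks per Mb in WT and 94.7 in *Bmi1*-/- within 3 kb of a TSS, and 19.5 and 27.7 between 100 and 150 kb. Just short of the limit, between 200 and 250 kb, it was 14.6 and 22.0. Just past it, between 250 and 300 kb, it was 13.2 and 19.1. No step was seen at the limit itself. From 300 to 500 kb the density was 9.84 in WT and 15.4 in *Bmi1*-/-, from 500 to 1000 kb it was 5.68 and 9.99, and beyond 1000 kb it was 4.33 and 7.27. The ratio of *Bmi1*-/- to WT was 1.22 within 3 kb. It was 1.51 between 200 and 250 kb and 1.45 between 250 and 300 kb, so that it did not rise at the limit. Farther out it was 1.76 between 500 and 1000 kb and 1.68 beyond.

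The median desert peak lay 404 kb from a protein-coding TSS in WT and 423 kb in *Bmi1*-/-. Beyond 1000 kb there were 286 and 481 peaks. Genes that do not code for protein came nearer, so that the median distance to any annotated gene was 38.9 kb and 42.3 kb. The members just inside the limit were a WT peak between *Irx1* and *Irx2*, which encode homeobox transcription factors, at chr13:72378682-72378914, 250.02 kb from a TSS and with a −log10 p of 2.64, and a *Bmi1*-/- peak on chromosome 5 at 250.20 kb with a −log10 p of 2.41. Just outside it lay a WT peak on chromosome 13 at 249.97 kb and a *Bmi1*-/- peak on chromosome 3 at 249.99 kb, with −log10 p of 4.96 and 4.91.

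Desert peaks were slightly narrower than nearer intergenic peaks. Their median width was 246 bp in WT (quartiles 210 and 298 bp) and 257 bp in *Bmi1*-/- (217 and 324 bp). Nearer intergenic peaks had medians of 253 and 267 bp, and promoter peaks of 288 and 334 bp. Among desert peaks whose −log10 q reached 5, the medians were 381.5 and 389 bp, so that the strong peaks were wider. At the shortest width in the lists, 200 bp, stood 554 WT desert peaks (17.8%) and 659 *Bmi1*-/- desert peaks (13.2%), compared with 9.33% and 5.96% of promoter peaks. At least 500 bp wide were 64 desert peaks in WT and 214 in *Bmi1*-/-. The widest *Bmi1*-/- desert peak, of 1643 bp, lay between *Rbms1*, which encodes an RNA-binding protein, and *Tank*, which encodes an adaptor of innate immune signalling.

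Few desert peaks were found in both lists. An overlap of at least 1 bp with a peak of the other list was found for 387 of the 3120 WT desert peaks, or 12.4% (11.3% to 13.6%), against 24.7% of all autosomal WT peaks. It was found for 384 of the 4993 *Bmi1*-/- desert peaks, or 7.69% (6.97% to 8.46%), against 18.4% of all autosomal *Bmi1*-/- peaks. Nearer intergenic peaks overlapped in 17.0% and 12.8% of cases, and promoter peaks in 48.8% and 36.7%. The deserts thus had the lowest share of the classes compared, in both lists. Outside genes the WT share fell from 57.8% within 3 kb of a TSS to 13.4% between 250 and 300 kb and 9.09% beyond 1000 kb, and the *Bmi1*-/- share from 39.7% to 9.07% and 5.61%.

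The low share was also seen among peaks of like strength. Among peaks with a −log10 p between 3 and 4, 9.59% of WT desert peaks overlapped, against 18.1% of WT peaks elsewhere, and 5.31% of *Bmi1*-/- desert peaks against 11.4%. Between 7 and 10 the shares were 25.5% against 62.1% in WT and 20% against 54.8% in *Bmi1*-/-. Nearer intergenic peaks, without promoters, came closer, with 37.2% in WT and 32.3% in *Bmi1*-/- between 7 and 10, and 13.8% and 9.74% between 3 and 4. At 10 or more they were 84.0% (63.9% to 95.5%) against 94.7% in WT, from 21 of 25 desert peaks, and 75.9% (56.5% to 89.7%) against 89.6% in *Bmi1*-/-, from 22 of 29. The share in deserts was the lower one in all 6 ranges of −log10 p examined, but at 10 or more its interval included the value elsewhere in both lists.

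The overlapping peaks formed 389 pairs, and in all but 1 of them the *Bmi1*-/- peak was a desert peak too. The median overlap was 201 bp, yet the summits were often apart. The median gap between the summits of a pair was 96 bp, and in 115 pairs (29.6%) it was at most 50 bp. Both members reached a q-value under 0.05 in 185 pairs, and a −log10 q of at least 5 in 22. An overlap of at least 50% of both peaks was left for 232 peaks of each list, 7.44% of the WT and 4.65% of the *Bmi1*-/- desert peaks.

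Base composition set the desert peaks apart from the ground they stand on. The deserts had a GC content of 38.3%, while the median desert peak had 49.5% in WT and 49.8% in *Bmi1*-/-. Peaks elsewhere had medians of 52.3% and 52.5%. Density rose steeply with the GC content of the desert. In the 209 deserts under 38% GC it was 4.65 peaks per Mb in WT and 8.61 in *Bmi1*-/-, in the 117 deserts of 40% to 42% it was 12.8 and 19.4, and in the 63 deserts of at least 44% it was 41.3 and 51.2. The ratio of *Bmi1*-/- to WT fell over the same bands, from 1.85 (1.72 to 1.996) to 1.51 and 1.24 (1.10 to 1.39). The ratio was thus lowest in the GC-rich deserts.

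Across the 425 deserts with at least 0.2 Mb of territory, GC content and density had a Pearson correlation of 0.753 in WT and 0.738 in *Bmi1*-/-, and a Spearman correlation of 0.563 and 0.575. These deserts share 1 library per genotype and differ in size, and the correlations are given as a description. Large deserts were the AT-rich ones. Those under 0.1 Mb, with 41.5% GC, had 23.8 peaks per Mb in WT and 29.97 in *Bmi1*-/-, and those of at least 2 Mb, with 37.1% GC, had 4.61 and 8.59.

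At like GC content the gap to nearer intergenic sequence was smaller. In windows of 20 kb with 38% to 40% GC, the desert density was 0.878 times that of nearer intergenic sequence in WT (0.798 to 0.966) and 0.921 times in *Bmi1*-/- (0.857 to 0.989). With 42% to 45% GC the ratios were 0.752 and 0.821, and with at least 45% they were 0.777 and 0.800. Under 36% GC they were 1.37 (0.954 to 2.03) and 1.35 (1.02 to 1.81), from 35 and 61 peaks in the nearer sequence. Without regard to GC the ratios were 0.287 and 0.348, as above. The overlap shares also came closer at high GC. In windows of 38% to 40% GC the share was 9.99% in deserts and 14.7% nearer to genes in WT, and 5.55% and 8.59% in *Bmi1*-/-. With at least 45% GC it was 17.9% and 18.3% in WT, and 13.8% and 14.9% in *Bmi1*-/-.

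The ratio of *Bmi1*-/- to WT differed less at like GC content in deserts and in nearer intergenic sequence. Under 36% GC it was 1.71 in deserts and 1.74 nearer to genes, at 36% to 38% it was 1.77 and 1.79, and at 38% to 40% it was 1.80 and 1.72. At 40% to 42% it was 1.56 (1.40 to 1.75) and 1.44 (1.37 to 1.52), at 42% to 45% it was 1.46 (1.32 to 1.63) and 1.34 (1.299 to 1.39), and with at least 45% GC it was 1.26 and 1.23. The desert ratio was the higher one in the 4 bands from 38% GC up and the lower one in both bands under 38%, and nearer intergenic sequence that is as AT-rich had a high ratio too.

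Interspersed and simple repeats, which are soft-masked in the genome sequence, made up 40.6% of the desert territory. Desert peaks with at least 50% of their bases soft-masked numbered 935 in WT (29.97%) and 1723 in *Bmi1*-/- (34.5%). The shares were 10.2% and 10.7% of the peaks elsewhere, and 16.4% and 16.9% of nearer intergenic peaks alone. Per Mb of masked desert bases there were 5.80 masked peaks in WT and 10.7 in *Bmi1*-/-. Per Mb of unmasked bases there were 9.27 and 13.9 of the other desert peaks. Repeats thus held a larger share of the peaks in deserts than elsewhere, though they were less dense than unmasked desert sequence. The masked share of the other sequence is not given here. The ratio of *Bmi1*-/- to WT was 1.84 for the masked peaks and 1.50 for the others. Masked peaks overlapped the other list in 10.3% of cases in WT and 5.34% in *Bmi1*-/-, and the others in 13.3% and 8.93%.

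Few desert peaks sat on sequence that occurs again elsewhere word for word. The copies of each 31-base word within 50 bp of a summit were counted in the genome, and the median word occurred more than once for 173 WT (5.54%) and 342 *Bmi1*-/- desert peaks (6.85%). The shares elsewhere were 2.69% and 2.76%, and 4.03% and 4.08% among nearer intergenic peaks alone. The overlap with the other list was alike for both kinds, at 12.7% for repeated and 12.4% for single words in WT and 7.60% and 7.70% in *Bmi1*-/-. How the mapper placed reads with several possible origins was not tested.

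Short motifs were counted within 100 bp of the summits, on both strands, and in windows of the same length 1000 bp to each side. The E-box CAGCTG, a site of basic helix-loop-helix factors, was found at 12.6% of WT desert summits (11.5% to 13.8%) against 7.21% of flanking windows, and at 12.7% of *Bmi1*-/- desert summits (11.8% to 13.7%) against 6.46%. At the summits elsewhere it was found in 13.1% and 13.5%, against 9.95% and 9.79% of their flanks. The E-box rose most above the flanks in deserts among the 10 motifs searched, leaving aside CTCF with 5 or fewer matches per list. Its share at the summits was not higher in deserts than elsewhere, while its share of the flanks was lower. Desert peaks had a median GC content of 49.5% and 49.8%, against 38.3% in the deserts. The part of base composition in this rise was not tested. The AP-1 word TGANTCA was at 5.06% of WT and 5.31% of *Bmi1*-/- desert summits, against 5.82% and 6.23% of flanks. The TEAD word GGAATG was at 11.9% and 12.1%, against 11.4% and 10.97%. For both words the intervals of summits and flanks overlapped. At the summits elsewhere AP-1 was at 5.12% and 5.24%, against 5.66% and 5.68% of flanks. TEAD was there at 10.1% and 10.3%, against 10.5% and 10.6%.

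The words of SOX and POU factors were less common at the summits than beside them. The SOX words ACAAAGG and ACAATGG were found at 6.70% of WT and 6.57% of *Bmi1*-/- desert summits, against 8.48% and 8.56% of flanks, and the AT-rich octamer ATTTGCAT of POU factors at 0.833% and 0.581%, against 1.92% and 1.88%. The same was seen at the summits elsewhere, with SOX at 5.97% and 6.01% against 6.91% and 6.88% of flanks, and the octamer at 0.519% and 0.4995% against 1.09% and 1.12%, so that it does not set the deserts apart. In deserts the RFX word GTTGCCA was at 1.955% and 2.30%, against 2.10% and 1.82%, and the GATA word AGATAAG at 3.14% and 2.84%, against 3.19% and 2.81%. Elsewhere RFX was at 2.09% and 2.14% of summits, against 2.08% and 2.05% of flanks. GATA was there at 2.01% and 1.94%, below the 2.50% and 2.54% of its flanks. The consensus of CTCF was found at 4 WT and 5 *Bmi1*-/- desert summits. The repeat CACACACA was at 8.14% and 8.33%, against 6.62% and 6.04% of flanks, and among masked peaks at 12.2% and 10.7%, against 5.72% and 4.64%. The repeat GAGAGAGA was at 4.07% and 2.92%, against 3.86% and 4.13%. Elsewhere CACACACA was at 9.99% and 9.41% of the summits, against 7.60% and 7.48% of flanks. GAGAGAGA was there at 2.93% and 3.06%, against 4.06% and 3.97%. A match is a description of letters and not a bound site, and the part of base composition in these shares was not tested.

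The desert with most territory, 3.98 Mb on chromosome 14 between *Pcdh20* and *Pcdh9*, which encode protocadherins, held 15 WT and 36 *Bmi1*-/- peaks, and 1 peak of each list overlapped the other. The desert between *Olfm4*, which encodes a secreted glycoprotein, and *Pcdh17*, of 3.84 Mb on chromosome 14, held 20 and 25, with none shared. The desert between *Cntnap5b*, a gene of the contactin-associated family, and the cadherin gene *Cdh20*, of 3.74 Mb on chromosome 1, held 17 and 32. The *Bmi1*-/- list, with 1.60 times as many peaks over all deserts, had more peaks in each of these deserts. The same held between *Celf4*, which encodes an RNA-binding protein, and the lipid kinase gene *Pik3c3* on chromosome 18 (14 and 27 in 3.51 Mb) and between *Pcdh7* and *G6pd2*, a gene of the glucose-6-phosphate dehydrogenase family, on chromosome 5 (9 and 24 in 3.36 Mb).

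The peaks farthest from a protein-coding TSS all lay between *Pcdh20* and *Pcdh9*. The farthest in WT, at chr14:91012613-91012812, was 2541 kb away and had a −log10 p of 3.50, and the farthest in *Bmi1*-/-, at chr14:91000149-91000475, was 2529 kb away with a −log10 p of 5.89. The 3 farthest peaks of each list overlapped no peak of the other. The farthest pair of overlapping peaks lay between *Cntnap5b* and *Cdh20*, 2140 kb from a TSS, with WT at chr1:102628115-102628391 and a −log10 p of 11.7 and *Bmi1*-/- at chr1:102628150-102628390 and a −log10 p of 9.82. Its summits were 55 bp apart.

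Of the 8 deserts with most peaks, all but 1 held under 1 Mb of territory and had over 40% GC. The desert between *Vrk1*, which encodes a protein kinase, and *3110018I06Rik* on chromosome 12 held 45 WT and 47 *Bmi1*-/- peaks in 0.815 Mb of territory with 45.8% GC. The desert between *Tbc1d22a*, a gene of the Rab GTPase-activating family, and *Fam19a5*, which encodes a secreted protein of the nervous system, held 28 and 57 in 0.704 Mb on chromosome 15. The desert between *Nphp4*, a gene of the ciliary transition zone, and *Ajap1*, which encodes a protein of adherens junctions, held 39 and 42 in 0.477 Mb on chromosome 4. These are 55.2 and 57.7, 39.8 and 80.9, and 81.7 and 88.0 peaks per Mb in WT and *Bmi1*-/-, all above the 32.9 and 41.9 per Mb inside genes. That mean is over all GC contents, whereas these deserts have 45.8%, 46.2% and 48.5% GC. Nearer intergenic windows of 20 kb with at least 45% GC had 64.9 and 79.7 per Mb. The desert beside *Vrk1* was below these values in both lists, and the desert beside *Tbc1d22a* in WT only. The desert beside *Nphp4* was above them in both lists.

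Among the remaining deserts of the 8 with most peaks, the counts were 31 WT and 33 *Bmi1*-/- between the zinc finger gene *Sall3* and the galanin receptor gene *Galr1*, 27 and 36 between the cadherin genes *Cdh26* and *Cdh4*, and 29 and 28 between *Plekhb2* and *Hs6st1*, which encodes an enzyme of heparan sulfate synthesis. Between *Rps24*, a ribosomal protein gene, and *Zmiz1*, which encodes a transcriptional coactivator, there were 26 and 32. Between *Sel1l*, a gene of protein quality control in the endoplasmic reticulum, and *Flrt2*, which encodes an adhesion and guidance protein, there were 20 and 41 in 3.31 Mb. The last is the only one of the 8 with under 40% GC, and its density of 6.05 and 12.4 peaks per Mb was below the 7.86 and 12.6 of all deserts.

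Among the 121 deserts with at least 1 Mb of territory, the median density was 4.92 peaks per Mb in WT and 8.53 in *Bmi1*-/-. With 1.60 times as many peaks over all deserts, the *Bmi1*-/- list was denser in 106 of these, the WT list in 12, and both were equal in 3. The densest over both lists lay between *Fat4*, which encodes a giant cadherin of planar polarity, and *Intu*, a gene of planar polarity and cilia, with 8.83 peaks per Mb in WT and 25.6 in *Bmi1*-/-. Next were *Slc4a3* to *Epha4* with 11.1 and 17.6, *Ttll7*, which encodes a tubulin-modifying enzyme, to the latrophilin gene *Adgrl2* with 9.02 and 19.5, the helicase gene *Ddx18* to the potassium channel subunit gene *Dpp10* with 7.61 and 17.98, and *Api5*, which encodes an inhibitor of apoptosis, to *Lrrc4c*, which encodes a netrin-G ligand, with 11.8 and 13.3. The order of the deserts was only loosely shared between lists, with a Pearson correlation of 0.344 and a Spearman correlation of 0.253 over the 121 deserts.

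The sparsest deserts of this size had little in either list. Between *4931408C20Rik* and *Gm597* there were 4 WT peaks and 1 *Bmi1*-/- peak in 1.57 Mb, and between the 14-3-3 gene *Ywhaq* and *Gm10330* there were 4 and 2 in 1.58 Mb. Between *Snrpn* and *Ndn*, imprinted genes on chromosome 7, there were 4 and 2 in 1.11 Mb. The desert beside *Ywhaq* was sparse in spite of 44.8% GC, the highest GC content among the 121. Between the adhesion gene *Cadm2* and *Speer2* there were 5 and 4, and between *Pot1a*, which encodes a telomere protein, and the glutamate receptor gene *Grm8* there were 0 and 8. Of all 670 deserts, 58 held no peak of either list, and these were small, 3.47 Mb together.

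Transcription factor genes flanked 103 deserts, with 42.8 Mb of territory. These had 12.4 peaks per Mb in WT and 17.8 in *Bmi1*-/-, against 7.30 and 11.9 in the other deserts, which gives ratios of 1.70 (1.55 to 1.87) and 1.49 (1.38 to 1.61). They were also richer in GC, at 39.5% against 38.2%. Beyond 500 kb from a TSS they were 1.44 (1.19 to 1.74) and 1.12 (0.953 to 1.31), and with transcription factor genes on both sides of the desert 3.18 (2.28 to 4.32) and 3.15 (2.43 to 4.02). Within 4 bands of GC the ratios were smaller than over all deserts, at 1.15, 1.10, 1.19 and 1.05 in WT and 1.11, 0.906, 0.952 and 1.13 in *Bmi1*-/- from under 38% to over 42%, and every interval included 1. Split at 40% GC only, they were 1.23 (1.05 to 1.43) below and 1.23 (1.08 to 1.39) above in WT, and 1.06 (0.938 to 1.20) and 1.21 (1.09 to 1.35) in *Bmi1*-/-. Where −log10 q had to reach 5, the WT ratio was 0.802 (0.157 to 2.57), from 3 peaks. Deserts between a pair of transcription factor genes, named after their values were seen, included *Tshz3* to *Zfp536*, both zinc finger genes, with 11 WT and 19 *Bmi1*-/- peaks, *Irx1* to *Irx2* with 8 and 12, and *Sall1* to *Tox3*, genes of zinc finger and HMG-box factors, with 11 and 12.

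Genes of neuronal adhesion, guidance and channels flanked 159 deserts, with 166 Mb, and these were sparser, at 5.79 peaks per Mb in WT and 9.99 in *Bmi1*-/- against 9.35 and 14.4 in the other deserts. The ratios were 0.620 (0.574 to 0.669) and 0.692 (0.652 to 0.734), with a GC content of 37.5% against 38.9%. Under 38% GC the ratios were 0.927 and 0.963, and in the 11 such deserts over 42% GC they were 1.31 (1.05 to 1.61) and 1.66 (1.39 to 1.957). The lists of genes that differed in density thus differed in GC content too, and within bands most of the ratios lay nearer to 1. The 35 deserts beside genes of signalling ligands and receptors had ratios of 1.22 (0.988 to 1.49) and 1.23 (1.05 to 1.44). The 4 deserts beside olfactory, vomeronasal and formyl peptide receptor genes held 19 WT and 34 *Bmi1*-/- peaks, of which 14 and 14 overlapped, 73.7% and 41.2%, and 13 of each lay at the start of chromosome 16. The 378 deserts beside none of the 5 lists had 8.51 and 13.4 peaks per Mb.

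Genes of cochlear development and hearing flanked 48 deserts, with 9.49 peaks per Mb in WT and 13.7 in *Bmi1*-/-, 1.23 times (1.08 to 1.39) and 1.10 times (0.993 to 1.22) the density of the others. Of their peaks, 27 in WT (9.51%) and 28 in *Bmi1*-/- (6.81%) overlapped the other list, so that they were no more often shared than desert peaks at large. The desert between *Zeb2*, which encodes a zinc finger repressor, and the activin receptor gene *Acvr2a* held 16 WT and 30 *Bmi1*-/- peaks in 2.72 Mb. Beside *Sox2*, the gene of an HMG-box factor that the prosensory cells of the cochlea need, the desert that reaches to *Atp11b* held 17 and 29 in 0.584 Mb, with 2 pairs shared. Between *Med13l*, a Mediator subunit gene, and the T-box gene *Tbx3* there were 21 and 25 in 0.408 Mb and none was shared.

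The other 3 of the 6 cochlear deserts with most peaks each held over 1 Mb of territory. Between the nuclear receptor gene *Nr2f1* and the arrestin-family gene *Arrdc3* there were 14 WT and 20 *Bmi1*-/- peaks in 1.83 Mb. Between the bile acid transporter gene *Slc10a2* and *Efnb2*, which encodes ephrin-B2, there were 13 and 18 in 2.50 Mb. Beside *Epha4*, a gene of an ephrin receptor, the desert that reaches to the anion exchanger gene *Slc4a3* held 12 and 19 in 1.08 Mb, with none shared. In each of these 6 deserts the *Bmi1*-/- list held more peaks than the WT list, but over all deserts it held 1.60 times as many. Over the 48 deserts beside cochlear genes the ratio was 1.45.

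By chromosome, density in deserts ranged in WT from 4.66 peaks per Mb on chromosome 19 to 12.4 on chromosome 7, and in *Bmi1*-/- from 8.27 on chromosome 17 to 16.3 on chromosome 7. The ratio of *Bmi1*-/- to WT was above 1 on each of the 19 chromosomes, from 1.31 on chromosome 7 to 2.07 on chromosome 19, where there were 28 and 58 peaks. Chromosome 7 had the highest desert GC content of the 19, at 39.98%. The share of WT peaks that overlapped was highest on chromosome 3, at 20.2%, and lowest on chromosome 10, at 5.93%.

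Sharing was most frequent at the starts of the assembled chromosomes, next to the centromere. In the first 1 Mb of assembled sequence, 1.41 Mb of territory on 7 chromosomes held 46 WT and 70 *Bmi1*-/- peaks, 32.6 and 49.6 per Mb. Of these, 73.9% in WT (58.9% to 85.7%) and 47.1% in *Bmi1*-/- (35.1% to 59.4%) overlapped the other list, against 11.5% and 7.13% of the desert peaks further in. They included 10 of the 34 WT and 12 of the 44 *Bmi1*-/- desert peaks whose −log10 q reached 5. The deserts with most shared peaks were such starts, on chromosome 3 up to the nuclear receptor gene *Hnf4g* (22 WT and 31 *Bmi1*-/- peaks, 14 and 13 shared) and on chromosome 16 up to the olfactory receptor gene *Olfr161* (14 and 22, 13 and 13 shared). Away from the starts, the deserts with most shared peaks were *Vrk1* to *3110018I06Rik* with 8 in each list, *Tbc1d22a* to *Fam19a5* with 7, *Nphp4* to *Ajap1* with 6 and *Cdh26* to *Cdh4* with 5. Between *Igfbp7*, which encodes a secreted binding protein, and the latrophilin gene *Adgrl3* on chromosome 5, and between *Fam19a5* and *Zdhhc25*, a gene of the palmitoyltransferase family, on chromosome 15, there were 6 in WT and 5 in *Bmi1*-/-.

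Within 300 kb windows, desert peaks were densest between *Nphp4* and *Ajap1*, where 29 WT peaks lay within 298 kb and 32 *Bmi1*-/- peaks within 288 kb. The cluster of 22 WT peaks between the matrilin gene *Matn1* and the phosphatase gene *Ptpru* had 17 *Bmi1*-/- peaks in the same window, and none of either overlapped. The window between *Med13l* and *Tbx3* was alike, with 15 and 22 peaks and none shared. Both windows were named after their values were seen. Over all deserts, 12.4% of WT and 7.69% of *Bmi1*-/- peaks overlapped, so that few shared peaks would be found among so many. The other dense windows did hold shared peaks, 4 in each list between *Nphp4* and *Ajap1* and 14 of 22 WT peaks at the start of chromosome 3.

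A desert beside *Gpm6a* held strong peaks that were not shared, and it was chosen after its values were seen. Between *Gpm6a*, which encodes a neuronal membrane glycoprotein, and *Adam29*, a gene of the ADAM family expressed in testis, 311 kb of territory on chromosome 8 held 22 WT and 13 *Bmi1*-/- peaks, 70.8 and 41.8 per Mb. A −log10 q of at least 5 was reached by 6 of these WT and 3 of these *Bmi1*-/- peaks, and none of the 9 overlapped the other list. The strongest in WT, at chr8:55519141-55519565, had a −log10 p of 24.5, with a 6.42-fold enrichment. The strongest in *Bmi1*-/-, at chr8:55347133-55348580, had a −log10 p of 21.05, with a 5.31-fold enrichment. The nearest summit of the other list was 3078 bp away from the former and 19956 bp from the latter. Repeated words lay at the summits of 10 of the 22 WT and 5 of the 13 *Bmi1*-/- peaks, against 5.54% and 6.85% of all desert peaks. How reads were assigned in this region was not tested.

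The 5 desert peaks with the highest −log10 p were the same places in both lists, and 3 of them are described here. Between the neurobeachin gene *Nbea* and *Tm4sf1*, which encodes a membrane protein, a peak at chr3:56575375-56575841 had a −log10 p of 67.6 in WT and 66.5 in *Bmi1*-/-. Between *Gm11042* and the potassium channel gene *Kcnh5*, a peak at chr12:74803803-74804583 had 60.8 and 63.3, and between *Manea*, which encodes a mannosidase of the Golgi, and the ephrin receptor gene *Epha7*, a peak at chr4:28176752-28177189 had 59.7 and 63.3. Fold enrichment at these 3 was 12.2, 11.3 and 11.2 in WT and 10.6, 10.3 and 10.3 in *Bmi1*-/-. These 3 strong desert peaks were thus near equal in the lists, while most of the weak ones were in 1 list alone. Strong peaks in 1 list alone were also found, as given above for the desert beside *Gpm6a*.

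Sequence around the summits of strong shared peaks is printed because it shows what kind of DNA gave the same signal in both libraries. Each line is 151 bases of the plus strand of GRCm38, centred between the summits of both lists, and capitals mark the bases from the summit of one list to that of the other. The first 4 are from the strongest shared desert peaks, and the last of them lies between the myomesin gene *Myom2* and *Csmd1*, a complement-related gene.
chr3:56575528-56575678: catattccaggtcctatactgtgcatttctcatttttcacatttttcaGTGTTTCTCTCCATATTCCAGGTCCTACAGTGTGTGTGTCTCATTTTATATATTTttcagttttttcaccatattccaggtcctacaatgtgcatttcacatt
chr12:74804315-74804465: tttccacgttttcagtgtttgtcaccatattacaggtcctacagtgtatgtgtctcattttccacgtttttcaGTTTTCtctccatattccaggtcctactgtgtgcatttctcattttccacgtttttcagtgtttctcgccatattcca
chr4:28176921-28177071: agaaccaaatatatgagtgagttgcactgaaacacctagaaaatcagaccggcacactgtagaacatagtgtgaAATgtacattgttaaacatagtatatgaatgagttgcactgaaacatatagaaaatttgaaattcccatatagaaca
chr8:15519858-15520008: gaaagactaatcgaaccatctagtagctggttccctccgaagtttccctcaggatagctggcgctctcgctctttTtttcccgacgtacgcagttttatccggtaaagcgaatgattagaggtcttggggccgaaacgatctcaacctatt
The other 2 are shared peaks outside the chromosome starts, chosen after the values were seen. Their median word at the summit occurs once and their bases are mostly unmasked. They are not the strongest of this kind, since the peak beside *Epha7*, printed above, also meets this description. They lie between *Ddx18* and *Dpp10*, with a −log10 p of 16.2 in WT and 18.7 in *Bmi1*-/-, and between *Tox*, the gene of an HMG-box factor, and *Car8*, a gene of the carbonic anhydrase family, with 17.0 and 10.4.
chr1:122357164-122357314: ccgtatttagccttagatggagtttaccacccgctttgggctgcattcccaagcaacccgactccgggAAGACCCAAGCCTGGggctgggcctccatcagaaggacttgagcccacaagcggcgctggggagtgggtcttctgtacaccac
chr4:7391707-7391857: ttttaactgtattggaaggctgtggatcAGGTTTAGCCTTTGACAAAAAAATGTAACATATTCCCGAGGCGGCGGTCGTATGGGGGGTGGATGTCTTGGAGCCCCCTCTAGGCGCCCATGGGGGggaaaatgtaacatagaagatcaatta

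The summits of the first 4 sequences were 54, 5, 2 and 0 bp apart in the lists. The peaks beside *Nbea* and *Kcnh5* repeated themselves. Set against itself with a shift of 117 bases, the WT peak beside *Nbea* matched at 63.4% of its positions, and the peak beside *Kcnh5* matched at 56.3% with a shift of 58 bases. These 2 peaks shared 39 words of 20 bases with each other. They also shared 26 and 73 words with *Gm26870*, a GENCODE gene of 38032 bases that lies at the start of the assembled chromosome 9 and holds only 4316 different words. Of all desert peaks, 2 in each list shared at least 5 words with it. The 2 peaks at chromosome starts among the 12 strongest of each list repeated with a shift of 21 bases, with 64.8% of positions matching in the WT peak at chr3:3001706-3001987.

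Repeats of this kind were more common among shared peaks. At least 60% of positions matched under the best shift of 20 to 250 bases in 8.27% of the shared and 1.28% of the other WT desert peaks, and in 8.85% and 1.76% of the *Bmi1*-/- desert peaks. Most shared peaks therefore had no such repeat. Another of the 5 strongest places, between the F-box gene *Fbxo15* and *Neto1*, which encodes a receptor-associated protein of synapses, on chromosome 18, had a −log10 p of 55.3 in WT and 54.9 in *Bmi1*-/- and matched at 33.5% of positions in WT, close to the median of 34.6% over all WT desert peaks. The peak beside *Csmd1* shared 216 words with a peak between *Mc2r*, the receptor gene of adrenocorticotropic hormone, and *Tcf4*, a gene of a basic helix-loop-helix factor, on chromosome 18, where the −log10 p was 42.6 in WT and 46.9 in *Bmi1*-/-. Both have words found several times in the genome, with a median of 8 and 10 copies around the summit.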

How the data were processed

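The ATAC-seq peak lists of 1 library per genotype were used. Per the submitters' processing notes the authors checked reads with FastQC, mapped them with BWA to mm10, called peaks with MACS2 and used HOMER. The versions and options are not stated there, and the age and the pooling come from the paper. Fold enrichment, as deposited, is a ratio of summit pileup to local background. The deposited −log10 p and −log10 q come from MACS2, where q is adjusted library by library. No result uses the deposited score, an integer made from −log10 p.

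Members were found with GENCODE vM21 and GRCm38, as stated at the start of the report, and no peak ended past a chromosome. Territory was every sequenced base more than 250 kb from each protein-coding TSS and outside genes. Chromosomes X and Y and unplaced sequences are not part of the rule, and RNA-seq and ChIP-seq from the same study are not analysed here. Groups follow the labelled genotype. Densities have exact Poisson intervals, shares exact binomial (Clopper-Pearson) intervals, ratios exact conditional intervals, and ratios of ratios a normal approximation on the log scale, all at 95% and for counting error only, with no p-value. Pileup and background at each summit were solved from fold enrichment and −log10 p with a pseudocount of 1. Python 3.11.15, numpy 2.4.6, pandas 2.3.3, scipy 1.17.1 and numba 0.67.0 were used, and territory, overlaps, intervals and word counts were tested on simulated data. The members and the gene lists were chosen with earlier results of these data known.

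Deserts named by rule are the 8 with most peaks, the 8 with most shared peaks, the 5 with most territory, the 5 densest and the 5 sparsest of at least 1 Mb, and the 6 cochlear ones with most peaks. Other deserts are named as chosen after their values were seen, or as the place of a named peak. Peaks named are the 5 strongest and 3 farthest of each list, except for 1 strong peak that is not reported here, and others are named as chosen after their values were seen. Alternatives were other distance limits, annotations, thresholds on −log10 q, equal list sizes, overlaps, treatments of masked bases and assembly gaps, and other rules for flanking genes. Chromosome starts, repeated words and GC bands were added after seeing the data.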

Additional observations from a re-analysis of the deposited data

How the results depend on the processing

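Of 122 recomputed values, 69 stayed within the 95% interval of the reported value, 51 moved outside it with the same direction, and 2 reversed. The cause was not tested where it does not follow from the alternative itself. The values below are for WT first and then for *Bmi1*-/-.

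With a limit of 100 kb in place of 250 kb, desert density relative to the other sequence was 0.292 and 0.342, the relative ratio of the lists 1.17, and the overlap 13.7% and 9.16%. With 500 kb these were 0.151 and 0.204, 1.35, and 10.0% and 5.83%. The median *Bmi1*-/- width was then 251 bp, and density beside transcription factor genes was 1.44 and 1.12 times that of other deserts. When only protein-coding genes were left out, relative density was 0.222 and 0.275.

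With a q-value under 0.05, relative density was 0.203 and 0.244, the *Bmi1*-/- median width 261 bp and the *Bmi1*-/- overlap 6.27%. With a −log10 q of at least 5, which left 34 and 44 desert peaks, relative density was 0.143 and 0.0536, median width 381.5 and 389 bp, and overlap 64.7% and 50%. The relative ratio of the lists reversed to 0.374. Beside transcription factor genes the WT ratio reversed to 0.802, from 3 peaks, and the *Bmi1*-/- ratio was 1.31, from 6.

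With lists cut to equal size, the relative *Bmi1*-/- density was 0.251, the relative ratio of the lists 1.18, and the overlap 10.3% and 8.66%.

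Peaks under 50% soft-masked gave relative densities of 0.166 and 0.195, a relative ratio of 1.18, a *Bmi1*-/- overlap of 8.56%, and 2.001 and 1.82 beside transcription factor genes. With assembly gaps counted as territory, relative density was 0.187 and 0.234 and the ratio beside transcription factor genes 1.97 and 1.73. An overlap of at least 100 bp was found for 10.6% and 6.61%, and one of at least 50% of both peaks for 7.44% and 4.65%. With transcription factors on both sides of the desert, the ratios were 3.18 and 3.15.

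Among the alternatives chosen after seeing the data, peaks with words found once gave a relative *Bmi1*-/- density of 0.254. Beside transcription factor genes the ratios were 1.23 and 1.06 in deserts under 40% GC, and 1.23 and 1.21 in those of at least 40%. Leaving out the chromosome starts moved none of the 9 reported values outside its interval.

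No paired analysis was possible because each genotype is 1 library of pooled mice, so that littermates cannot be matched. The part of depth in these values was not tested. The backgrounds of 6.32 and 8.04 reads differ between the libraries, so that a peak of the same pileup reaches a different −log10 p in each, and the lists carry no counts at places without a peak. A peak missing from a list is therefore not shown to be closed there. The labels and the peak names name opposite genotypes.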

Other observations

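The deserts hold long stretches without any called peak in either list. Of the 670 deserts, 26 held WT peaks and no *Bmi1*-/- peak, 70 held *Bmi1*-/- peaks and no WT peak, and 516 held both. The largest desert without a peak of either list had 0.294 Mb of territory. No desert peak had a 31-base word within 50 bp of its summit that occurs in the mitochondrial genome.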
